A study of Homo sapiens with 9 samples.

Results

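Translation initiation factors are the proteins that bring the initiator tRNA, the messenger RNA and the ribosomal subunits together at a start codon. The 38 genes described here were listed by symbol as members of this family. All 38 were matched to an identifier in the count files, and 38 of 38 passed the filter of at least 1 CPM (reads scaled to the size of the library) in at least 2 libraries, out of 16155 genes that passed it. By complex they comprise EIF1 and EIF1AX (2 genes), eIF2 (3), eIF2B (5), eIF3 (13), eIF4F (5), the partners and inhibitors of eIF4F (6), and a last set of 4 that act in subunit joining, in its control or in unwinding (EIF5, EIF5B, EIF6 and DHX29).

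The study asked how gene expression in Daoy cells depends on the helicase DDX3X, a DEAD-box protein encoded on the X chromosome that binds initiation factors and acts on structured 5′ untranslated regions. Daoy is an established human cell line that was derived from a cerebellar tumour, a medulloblastoma. The 9 poly(A) RNA libraries fall into 4 groups. The controls were 1 library of parental cells and 1 of vector cells. The knockdown group (shDDX3X) had 3 libraries with a doxycycline-inducible short hairpin RNA, directed at the 3′ UTR of DDX3X in shDDX3X 1 and 3 and at its open reading frame in shDDX3X 2. In 4 further libraries the cells carried the 3′ UTR hairpin and FLAG-tagged DDX3X. In 1 of them the tagged protein was wild type, and the others had the G302V, R534H or P568L mutant, 1 library for each, which form a mutant group of 3. The labels give 1 treatment for all libraries, doxycycline at 1 µg/ml for 72 h, without saying of each control whether it was treated. The lines are polyclonal populations.

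As background, initiation runs through a fixed order of complexes. eIF2 carries the initiator tRNA, eIF2B reloads eIF2 with GTP, and eIF1 and eIF1A keep the scanning small subunit open until a start codon is found. eIF3 is the scaffold that binds the small subunit, and eIF4F (the cap-binding protein eIF4E, the scaffold eIF4G and the helicase eIF4A) attaches it to the capped messenger. The 4E-binding proteins block eIF4E when mTORC1 is inactive, and eIF5 and eIF5B end the process by triggering GTP hydrolysis and joining of the large subunit.

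Each library held between 8216568 and 13030572 reads assigned to genes. By the numbers in their deposited names, the libraries form series A (parental, shDDX3X 1 and shDDX3X 2, with 5.24% to 5.73% of reads unaligned) and series B (the other 6, with 19.6% to 24.0%). No label ties this series to a sequencing run, and it was kept as a term of the test. DDX3X itself was at 683 CPM in parental and 453 CPM in vector cells, and at 249, 139 and 182 CPM in shDDX3X 1, 2 and 3 (log2 fold change -1.60 ± 0.24 SE, edgeR adjusted p = 0.0357). In the libraries labelled wild type, G302V, R534H and P568L it was at 195, 198, 211 and 242 CPM. These 4 values lie below both controls and within the range of the knockdowns, though above shDDX3X 3, the knockdown of their series. The counts of DDX3X thus match the knockdown labels and do not clearly show the re-expression. The 4 libraries are called by their labels below. Neural progenitor markers were present (9 of 9 listed genes, summed level 1233 to 2861 CPM, led by VIM, with 1694 to 2861 CPM in the controls and 1259.7 to 1953 CPM in the knockdowns), of neuronal and granule lineage markers 4 of 7 passed 1 CPM in 2 libraries (summed level 10.1 to 52.2 CPM), of epithelial markers 3 of 6 (226 to 486 CPM, led by KRT8), and of haematopoietic markers 1 of 6 (0.475 to 2.13 CPM).

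The initiation factor genes were expressed over a wide range. The highest mean level over the 9 libraries was that of EIF4G2 (1506 CPM), a relative of eIF4G. The lowest was that of the cap-binding protein EIF4E (32.4 CPM). This leaves aside EIF4A1 (6.56 CPM), whose sequence is shared with other counted genes as described below. Scaled to transcript length, so that genes can be compared, the subunits of eIF2 were within 1.94-fold of each other, from 52.8 CPM per kb for EIF2S2 to 102 CPM per kb for EIF2S3. The exchange factor eIF2B had a lower median, 24.6 CPM per kb over its 5 subunits against 59.9 CPM per kb for eIF2. The 2 complexes overlapped, since eIF2B ran from 14.6 CPM per kb (EIF2B2) to 68.8 CPM per kb (EIF2B1). In eIF3, 12 subunits other than EIF3C lay between 61.1 CPM per kb (EIF3J, a loosely bound subunit) and 411 CPM per kb (EIF3K). These scaled levels rest on the median length of each gene's transcripts, and with the longest transcript the spread within eIF3 was 12.6-fold in place of 6.73-fold. The median coefficient of variation of single members over the 9 libraries was 14.8%, against 22.3% for all genes of at least 5 CPM. The 2 sets were not matched for level, since all members but EIF4A1 had means of 32.4 CPM or more. The part of level in this difference was not tested. The steadiest were EIF2B5 (4.09%) and EIF2B1 (4.50%), and the most variable EIF4A1 (68.6%) and EIF3C (50.8%), which both share sequence with other counted genes, then EIF5 (39.4%), EIF3J (35.3%) and EIF5B (34.7%).

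**Figure D1:**
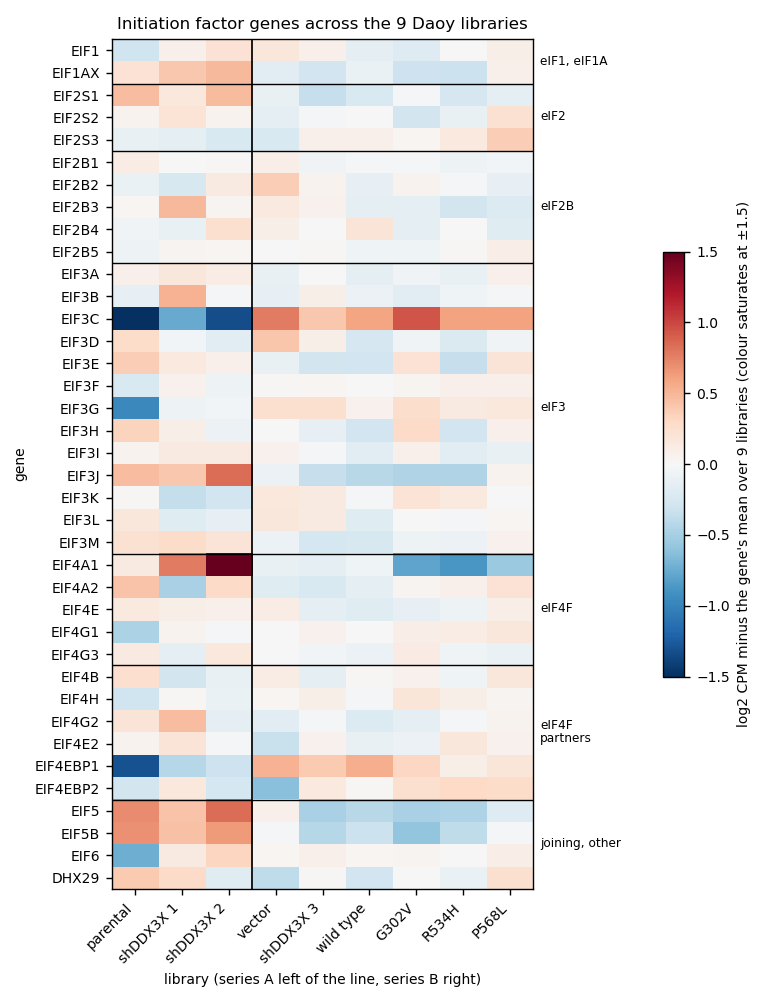
Each row is 1 of the 38 genes and each column 1 library, with series A left of the vertical line; the colour is the log2 CPM minus the gene's own mean over the 9 libraries. EIF3C and EIF4EBP1 are lower in all 3 libraries of series A than in the 6 of series B, and EIF5, EIF5B and EIF2S1 are higher there, and the median log2 fold changes of the 7 sets in knockdown lie between -0.14 and 0.18.

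With DDX3X knockdown no initiation factor gene passed the test. edgeR called 0 of the 38 members in shDDX3X against control at an adjusted p of 0.05, where it called 0.675% of all genes (109 of 16155), and DESeq2 called 0 members too. At an unadjusted p below 0.05 stood 5 of the 38 members, against 22.0% of all genes. The median log2 fold change was 0.04 over the members and -0.01 over all genes, with 21 members above 0 and 17 below. By complex the medians were 0.08 for eIF2, 0.03 for eIF2B, -0.01 for eIF3 and -0.09 for eIF4F. They were 0.14 for EIF1 and EIF1AX, 0.18 for the partners of eIF4F and -0.14 for the subunit joining set. For 36 of the 38 members the 95% interval lay within a 2-fold change in either direction. The exceptions were EIF4A1, whose interval reached a log2 fold change of 1.52, and EIF6, whose interval reached 1.04. All knockdown libraries lay to the same side of both controls for 9 of the 38 members (23.7%), against 20.9% of all genes. Of these 4 were higher (10.1% of all genes) and 5 lower (10.8%). Since messenger counts are relative to the library, a change shared by all messengers would not be seen in any of these values, and in bulk libraries fewer cells with a messenger and less of it per cell cannot be told apart.

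**Figure D2:**
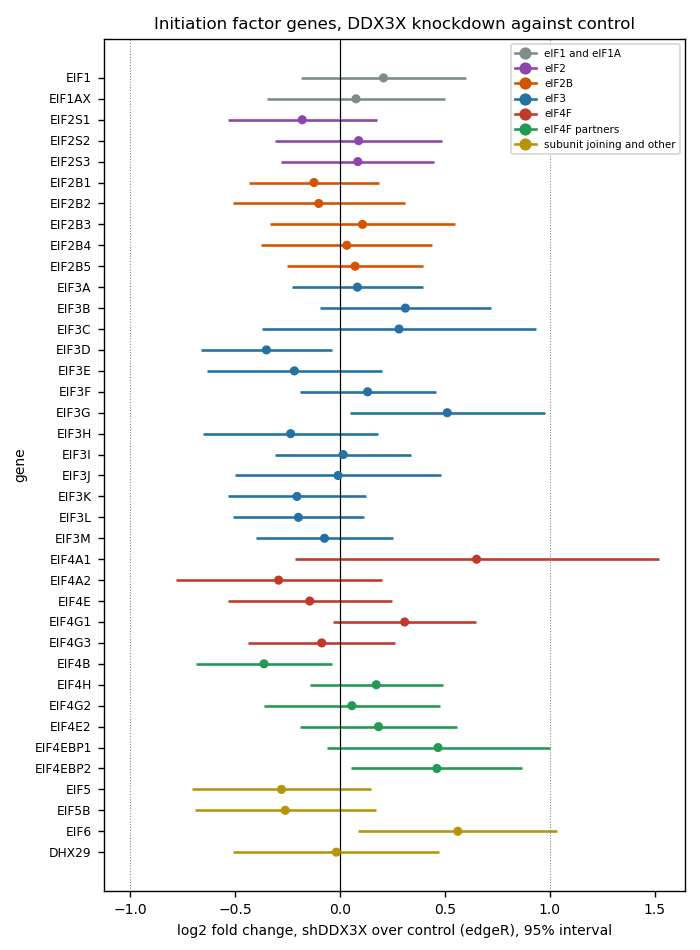
Points are edgeR log2 fold changes of shDDX3X over control for the 38 genes, coloured by complex, and lines are 95% intervals; dotted lines mark a 2-fold change. The interval of EIF4A1 is the widest, and the intervals of EIF6, EIF3G, EIF4EBP2, EIF3D and EIF4B exclude 0 before adjustment for multiple tests.

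EIF1 and EIF1AX, which govern start codon selection, were at 383 CPM (EIF1) and 67.7 CPM (EIF1AX) in parental cells. EIF1 was at 529 CPM in vector cells and at 494, 547 and 494 CPM in the knockdown libraries, and among all 9 libraries the parental one was the lowest. X-linked EIF1AX was at 52.1 CPM in vector cells and at 77.0, 81.2 and 47.7 CPM in the knockdowns. Its 3 values of series A (67.7 to 81.2 CPM) were all above the 6 of series B (46.4 to 61.5 CPM). The fold changes were 0.21 ± 0.18 (SE, log2) for EIF1 and 0.08 ± 0.19 for EIF1AX, with edgeR adjusted p of 0.527 and 0.858.

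In eIF2, the member with the highest log2 fold change in knockdown was EIF2S2 (the beta subunit) and the lowest EIF2S1, the alpha subunit that stress kinases phosphorylate. EIF2S2 was at 145 and 127 CPM in the controls and at 161, 144 and 137 CPM in the knockdowns (0.09 ± 0.18, edgeR adjusted p = 0.818). EIF2S1 was at 278 and 187 CPM in the controls and at 225, 281 and 158 CPM in the knockdowns (-0.18 ± 0.16, adjusted p = 0.547). For both the groups overlap. EIF2S3, the X-linked subunit that binds the initiator tRNA, was at 269.7 CPM in parental and 247 CPM in vector cells. Its knockdown values were 262, 248 and 306 CPM (0.08 ± 0.16, adjusted p = 0.809), and the library labelled P568L had its highest value, 375 CPM. In eIF2B, the extremes were EIF2B3 (0.11 ± 0.20, adjusted p = 0.800) and EIF2B1 (-0.12 ± 0.14, adjusted p = 0.651). EIF2B1 was at 131 and 130.0 CPM in the controls and at 121, 123 and 117 CPM in the knockdowns, so the groups did not overlap. EIF2B3 was at 36.7 and 39.9 CPM in the controls and at 50.3, 37.0 and 37.7 CPM in the knockdowns, with shDDX3X 1 alone above the rest.

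In eIF3, 6 subunits had a log2 fold change above 0 and 7 below, and the extremes were EIF3G and EIF3D. EIF3D, which can itself bind the cap of some messengers, was at 383 and 423 CPM in parental and vector cells. It was at 309, 284 and 338 CPM in shDDX3X 1, 2 and 3. All 3 knockdown values lay below both controls, and against the control of their own series the log2 ratios were -0.31, -0.43 and -0.32. The log2 fold change was -0.35 ± 0.14, with an edgeR adjusted p of 0.185, and -0.64 (adjusted p = 0.0748) after the trend of neighbouring genes was removed. The library labelled wild type was at 266 CPM and those labelled G302V, R534H and P568L at 306, 274 and 305 CPM, so that all 7 libraries with a hairpin were below both controls. Such a gap between the 7 hairpin libraries and both controls was found for 5 of the 38 members (13.2%) and for 10.6% of all genes: EIF4EBP2 was higher (5.6% of all genes were), and EIF3D, EIF3L, EIF2B1 and EIF4E were lower (5.04% of all genes). EIF3L was at 422 CPM in both controls and between 331 and 413 CPM in the 7 hairpin libraries. EIF3L and EIF4E both share sequence with other genes. Of the 100-base windows of their transcripts, 41.2% for EIF3L and 37.3% for EIF4E also occur in transcripts of other genes.

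EIF3G, an RNA-binding subunit of eIF3 on chromosome 19, was at 110.2 CPM in parental and 255 CPM in vector cells. It was at 205 and 210.1 CPM in the knockdowns of series A and at 255 CPM in that of series B. The parental library was thus the only low one, since the other 8 lay between 205 and 259 CPM. The pooled log2 fold change of 0.51 ± 0.21 (edgeR adjusted p = 0.193) became 0.91 (adjusted p = 0.00932) without the vector control and 0.91 (adjusted p = 0.0095) without shDDX3X 3, both of which leave only series A to compare. Without the parental control it was -0.00022. The median log2 ratio of its 50 nearest coding genes over parental cells was 0.47 in shDDX3X 1 and 0.59 in shDDX3X 2. Over 9 other settings, removal of the GC trend and of the neighbour trend among them, the log2 fold change of EIF3G ranged from 0.09 to 0.52. The cause of this range was not tested.

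EIF3C, a core subunit on chromosome 16, was at 23.5, 50.0 and 33.4 CPM in the parental library, shDDX3X 1 and shDDX3X 2. In series B it was at 144 CPM in vector cells, at 111 CPM in shDDX3X 3 and at 127, 162, 128 and 128 CPM in the libraries labelled wild type, G302V, R534H and P568L. The series do not overlap, and the lowest library of series B was above the highest of series A by more than any difference within series A. EIF3C has a near-identical paralogue, EIF3CL: 95.1% of the 100-base windows of its transcript are also found in that of EIF3CL, so reads of the pair can be split between them or set aside by the counting. The sum of the pair moved in the same way, from 36.9, 79.4 and 62.6 CPM in series A to between 193 and 245 CPM in series B, while EIF3C kept 53.4% to 67.0% of the sum in all 9 libraries. How reads that fit both genes were assigned was not tested, so the values of EIF3C are uncertain as a measure of its own messenger. Its fold change in knockdown was 0.28 ± 0.29 (adjusted p = 0.618).

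In eIF4F, the RNA helicase eIF4A is encoded by EIF4A1 and EIF4A2. EIF4A1 had only 79, 117 and 207 reads in parental cells, shDDX3X 1 and shDDX3X 2, and 53, 43, 46, 27, 29 and 50 in the vector, shDDX3X 3, wild type, G302V, R534H and P568L libraries. Processed copies of the gene together held 362% to 1503% of the EIF4A1 count in the same library. The most counted copy, EIF4A1P10 on the X chromosome, held 290 to 527 reads. The following stretch of 30 coding bases (190 to 219 of the EIF4A1 coding sequence, from GENCODE v29 transcripts, 5′ to 3′) is shown because it holds bases that tell copy and gene apart, 4 of them, printed in capitals.
EIF4A1: ctaccttgtatcaAgggttatGatgtGatT
EIF4A1P10: ctaccttgtatcaGgggttatAatgtAatC
Over 1216 compared coding bases the pair differ at 50 (95.9% identity), and 78 of 1117 windows of 100 bases, the length of a read, are identical. In the same annotation, which is of another build than the counts, 48.6% of the exonic bases of EIF4A1 lie within exons of other genes, and every 100-base window of its main transcript also occurs in a transcript of another gene. How reads that fit several of these genes were assigned was not tested, and the values of EIF4A1 are given as counted.

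**Figure D3:**
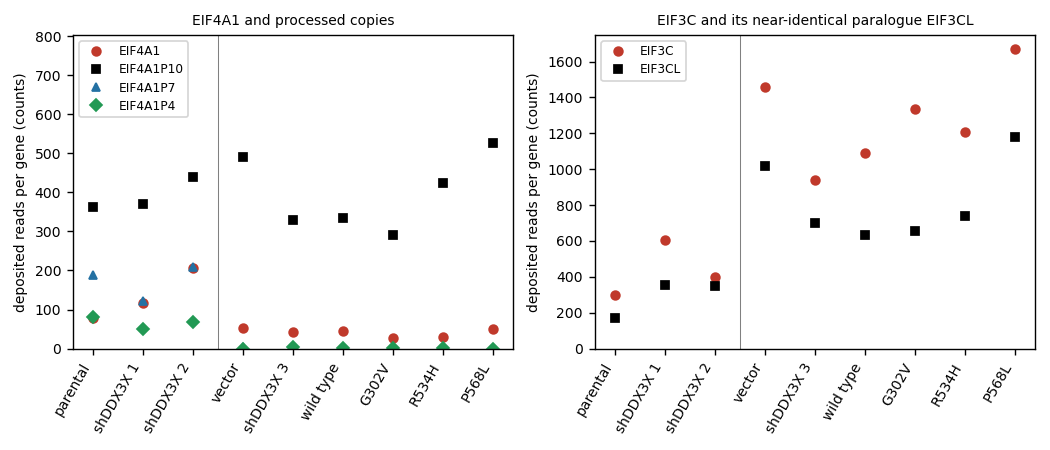
Deposited reads per library for EIF4A1 and 3 of its processed copies (left) and for EIF3C and EIF3CL (right), with series A left of the vertical line. EIF4A1P10 exceeds EIF4A1 in all 9 libraries, EIF4A1P7 has 123 to 210 reads in series A and 0 to 3 in series B, and EIF3C and EIF3CL are both lower in series A.

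EIF4A1 stood at 6.16 and 5.23 CPM in the controls and at 9.69, 17.3 and 5.08 CPM in the knockdowns (0.65 ± 0.39, edgeR adjusted p = 0.362), the highest fold change within eIF4F, with the same limit on its counts. Without the parental control it was -0.04. The lowest in eIF4F was its paralogue EIF4A2, at 444 and 290.2 CPM in the controls and at 235, 402 and 283 CPM in the knockdowns (-0.29 ± 0.22, adjusted p = 0.473). For EIF4A2 shDDX3X 1 lay below both controls, as did shDDX3X 3 by a small margin, and shDDX3X 2 lay between the controls. The copies of EIF4A1 also differed between the series: EIF4A1P7 had 123 to 210 reads in series A and 0 to 3 in series B, and EIF4A1P4 49 to 80 and 0 to 5. Whether reads were placed differently in the 2 series was not tested.

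The cap-binding protein EIF4E was at 35.8 and 34.9 CPM in the controls and at 34.3, 33.9 and 29.4 CPM in the knockdowns (-0.14 ± 0.17, adjusted p = 0.679). Copies of EIF4E held 10.6% to 19.5% of its count in the same library, so its values carry a limit from shared sequence. Per length, its relative EIF4E2, which binds caps without joining eIF4G, was above EIF4E in every library. EIF4E as counted made up 26.9% to 37.2% of the pair. EIF4E2 was at 94.8 and 72.5 CPM in the controls and at 104, 89.7 and 95.01 CPM in the knockdowns (0.18 ± 0.17, adjusted p = 0.563). Of the scaffolds, EIF4G1 was at 704 and 976 CPM in the controls and at 1012, 970.3 and 1022 CPM in the knockdowns (0.31 ± 0.15, adjusted p = 0.271). It was at 704 CPM only in parental cells, and the other 8 libraries lay within 1.14-fold of each other. EIF4G3 was at 211 and 194 CPM in the controls and at 175, 215 and 187 CPM in the knockdowns (-0.09 ± 0.16, adjusted p = 0.795). Per length, EIF4G1 made up 78.6% of the EIF4G1 and EIF4G3 pair in parental cells and 83.3% to 87.2% in the other libraries.

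Among the partners of eIF4F, EIF4B, which stimulates the eIF4A helicase, was at 778 and 706 CPM in the controls. In the knockdowns it was at 540.2, 605 and 592 CPM, below both controls in all 3 (-0.36 ± 0.15, edgeR adjusted p = 0.189). It was at 660.0 CPM in the library labelled wild type and at 687, 624 and 734 CPM in those labelled G302V, R534H and P568L, all above the knockdowns. EIF4H, with a like role, was at 529 and 664 CPM in the controls and at 658, 608 and 692 CPM in the knockdowns. EIF4B was named for standing next after the 3 lowest p-values.

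The 4E-binding proteins EIF4EBP1 and EIF4EBP2 had like pooled fold changes in knockdown, from different patterns over the libraries. EIF4EBP2 was at 195 CPM in parental and 153 CPM in vector cells. It was at 264, 197 and 261 CPM in shDDX3X 1, 2 and 3, at 239 CPM in the library labelled wild type and at 279, 291 and 286 CPM in those labelled G302V, R534H and P568L. Every hairpin library was above both controls, though shDDX3X 2, the open reading frame hairpin, by only a small margin. The log2 ratio to the control of the same series was 0.43, 0.01 and 0.77 in the knockdowns. The pooled log2 fold change was 0.46 ± 0.18 (edgeR adjusted p = 0.182), with 0.24 without the vector control and 0.77 without the parental one, and the 50 neighbouring coding genes had medians of -0.03, -0.13 and 0.12 in the same ratios.

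EIF4EBP1 was at 33.2 CPM in parental and 118 CPM in vector cells. It was at 61.3, 66.5 and 108 CPM in shDDX3X 1, 2 and 3, so that the knockdowns were above the control in series A and slightly below it in series B. The log2 fold change was 0.47 ± 0.24 (edgeR adjusted p = 0.284). Without the vector control it was 0.94 (adjusted p = 0.0125), without shDDX3X 3 0.94 (adjusted p = 0.0128), and without the parental control -0.12. After the GC trend was removed from each library it was -0.45, the opposite sign, and EIF4EBP1 has the highest GC content of the 38 members (65.5%). Per length, EIF4EBP1 made up 54.7% of the EIF4EBP1 and EIF4EBP2 pair in parental cells, 84.6% in vector cells, and 62.3% to 78.2% in the 7 hairpin libraries.

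**Figure D4:**
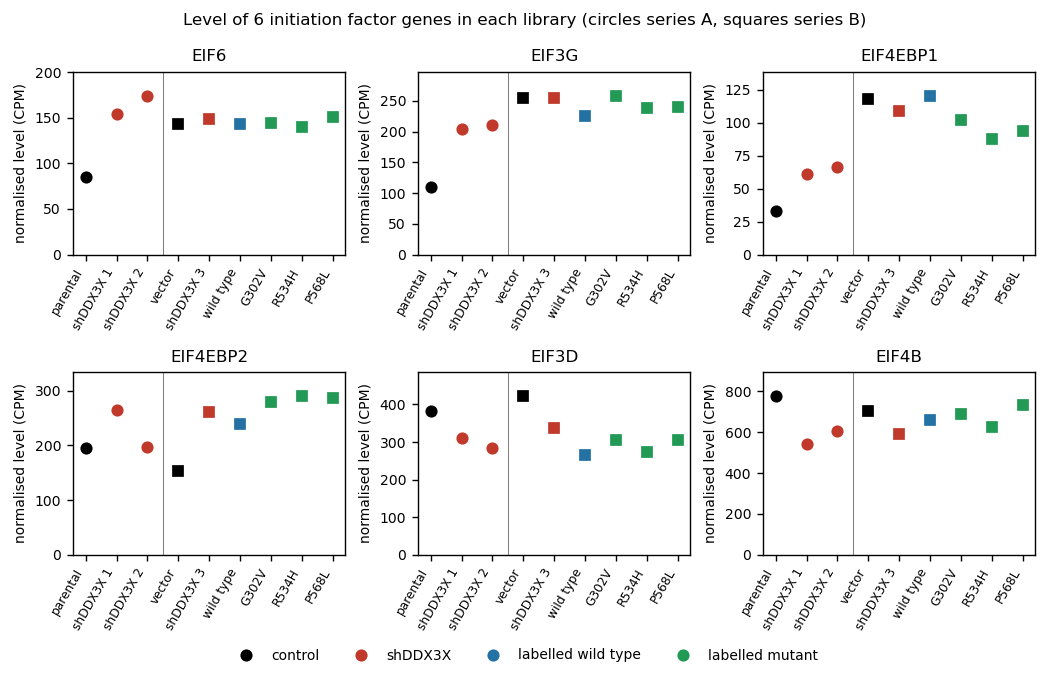
Normalised level (CPM, from 0) of 6 genes in each library, coloured by group, with circles for series A and squares for series B. EIF6, EIF3G and EIF4EBP1 are lowest in parental cells, EIF4EBP2 is lowest in the 2 controls, and EIF3D is highest there.

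Of the factors that act at subunit joining, EIF6, which keeps the large subunit from joining early, had the lowest p in knockdown. It was at 84.5 CPM in parental and 143 CPM in vector cells, and at 154, 174 and 148 CPM in shDDX3X 1, 2 and 3 (0.56 ± 0.21, edgeR adjusted p = 0.168). The knockdowns were above both controls. The parental library was again the only low one, with the other 8 between 139 and 174 CPM. Within series A the log2 ratios were 0.86 and 1.04, and in series B 0.06. Without the vector control the pooled value was 0.96 (adjusted p = 0.00851), without shDDX3X 3 0.96 (adjusted p = 0.00882), and without the parental control 0.06. With the GC trend removed it was 0.25. EIF5, the GTPase activator of eIF2, was at 674 and 435 CPM in the controls and at 554, 737 and 295 CPM in the knockdowns (-0.28 ± 0.19, adjusted p = 0.432). EIF5B was at 278 and 171 CPM in the controls and at 235, 269 and 128 CPM in the knockdowns (-0.26 ± 0.19, adjusted p = 0.465), and for both genes the groups overlap. DHX29, a helicase for structured leaders, was at 84.3 and 49.2 CPM in the controls and at 78.7, 56.9 and 65.0 CPM in the knockdowns (-0.02 ± 0.22, adjusted p = 0.977).

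The parental library was the lowest of the 9 for 9 of the 38 members (EIF1, EIF2B5, EIF3C, EIF3F, EIF3G, EIF4G1, EIF4H, EIF4EBP1 and EIF6) and the highest for 8. Across the 38 members, the log2 fold change in knockdown and the GC content of the transcript had a Pearson r of 0.56, as a description over genes that share the libraries. Because 2 of the 3 knockdown ratios have the parental library as their control, the pooled folds rest on it more than on any other library.

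The library labelled wild type was compared with the knockdowns to ask what re-expression of DDX3X does. edgeR called 0 of the 38 members, at an unadjusted p below 0.05 too, against 0% of all genes called and 2.92% at that unadjusted p. DESeq2 called 0 members. With a single library, the comparison borrows its spread from the other groups. DDX3X itself was not called there (log2 fold change 0.24) and lay within the range of the knockdowns, so no direction can be tied to the protein. The median log2 fold change was -0.11 over the members and -0.02 over all genes. In eIF3, 12 of the 13 subunits had values below 0, with a median of -0.17. The 3 members of lowest p were EIF3D (-0.33 ± 0.20), EIF3G (-0.45 ± 0.29) and EIF1 (-0.37 ± 0.25), each with an edgeR adjusted p of 1.00. The intervals were wide, with a median half-width of 0.57 on the log2 scale, so that changes of this size were not detectable here.

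For the mutant libraries against the knockdowns edgeR called 0 of the 38 members, with 0 at an unadjusted p below 0.05, where 0% of all genes were called and 5.53% were below that unadjusted p. DESeq2 called 0 members. Over the members the median log2 fold change was -0.01, and over all genes 0.01. The lowest p-values belonged to EIF4A1 (-0.95 ± 0.44), EIF4EBP1 (-0.53 ± 0.26) and EIF4A2 (0.46 ± 0.25), each with an edgeR adjusted p of 0.831. EIF4A1 was at 3.26, 3.06 and 3.84 CPM in the libraries labelled G302V, R534H and P568L, below all 3 knockdowns. EIF4A2 was at 338, 348 and 385 CPM there, within the range of the knockdowns. All mutant libraries are in series B and only shDDX3X 3 shares it: against that library alone EIF4EBP1 was at 102, 87.8 and 93.5 CPM where shDDX3X 3 had 108 CPM. Without shDDX3X 3 the fit called EIF4EBP1 (-1.27, adjusted p = 0.0203) and EIF3G (-0.97, adjusted p = 0.0491), a fit in which the mutants share no series with any knockdown. The groups did not overlap for 6 of the 38 members (15.8%), against 14.6% of all genes. The 4 higher ones were EIF3C, EIF4B, EIF4EBP2 and EIF4G1 (7.84% of all genes were higher), and the 2 lower ones EIF2B3 and EIF4A1 (6.8%).

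Between the mutant libraries and the library labelled wild type, edgeR called 0 of the 38 members and none was at an unadjusted p below 0.05, beside 0% and 1.95% of all genes. DESeq2 called 0 members. The median log2 fold change was 0.11 over the members and 0.01 over all genes, with 31 of the 38 above 0, among them all 13 of eIF3. By library, 27 of the 38 members were above the wild type with G302V, 23 with R534H and 32 with P568L. Of the 16155 genes tested, 7880, 8010 and 8117 were. In eIF3 the counts were 11, 10 and 13 of the 13 subunits, so the mutants were not uniform. Since the same single wild type library enters this comparison and the one with the knockdowns, the 2 sets of signs are not independent of each other. The lowest p-values were those of EIF4A1 (-0.65 ± 0.47), EIF3H (0.33 ± 0.24) and EIF3E (0.33 ± 0.24), with an edgeR adjusted p of 1.00 each.

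EIF3E and EIF3H, subunits of eIF3 that both lie on chromosome 8, were not uniform among the mutants. EIF3E was at 307 CPM with G302V and 301.8 CPM with P568L, but at 207 CPM with R534H, 217 CPM with the wild type, 218 CPM in shDDX3X 3 and 245 CPM in vector cells. EIF3H was at 238 and 205 CPM with G302V and P568L, at 159.7 CPM with R534H, at 159.9 CPM with the wild type, and at 178.2 and 193 CPM in shDDX3X 3 and vector cells. In both genes G302V and P568L stood above the other libraries of series B. Other genes nearby moved alike: the median log2 ratio over vector of the 50 coding genes nearest to EIF3E was 0.26 with G302V and 0.25 with P568L, but 0.02 with R534H. The 374 other coding genes of chromosome 8 with a position and a mean of at least 5 CPM had medians of 0.19 with G302V and 0.14 with P568L.

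Chromosome 14 holds EIF2S1, EIF2B2 and EIF5. Its 390 other coding genes with a position and a mean of at least 5 CPM had a median log2 ratio over vector of -0.38 in shDDX3X 3. In the libraries labelled wild type and mutant the median was -0.20 to -0.26. EIF5 was at 435 CPM in vector cells and between 295 and 363 CPM in the other 5 libraries of series B. EIF2B2 was at 80.8 CPM in vector cells and between 57.6 and 65.0 CPM in those 5. EIF2S1 did not follow the chromosome in each library: it was at 187 CPM in vector cells, at 158 CPM in shDDX3X 3, at 173 CPM with the wild type, and at 198, 170.1 and 184 CPM with G302V, R534H and P568L. Its log2 ratio over vector was 0.09 with G302V and -0.02 with P568L, where its 50 nearest coding genes had medians of -0.28 and -0.21. Across the 38 members, the log2 ratio to vector and the median ratio of a member's 50 nearest coding genes had a Pearson r of 0.50 in shDDX3X 3, 0.62 with the wild type, 0.41 with G302V, 0.41 with R534H and 0.65 with P568L, against 0.34 and 0.14 for the knockdowns of series A over parental cells. These are descriptions over genes that share the libraries. With the neighbour trend of each library removed, 0 members were called in shDDX3X against control. The cause of these regional shifts was not tested.

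**Figure D5:**
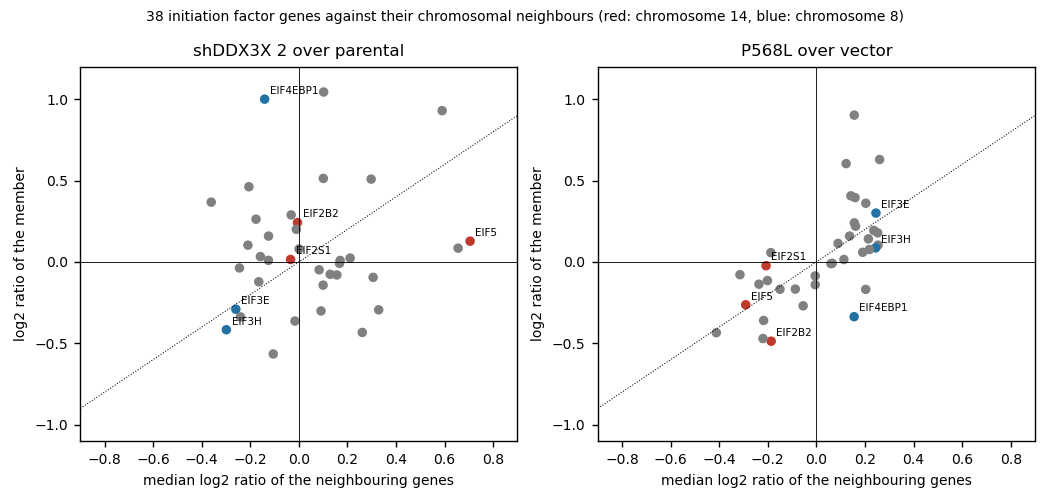
Each point is 1 of the 38 members, with the median log2 ratio of its nearest coding genes on the x axis and its own on the y axis. The ratios are shDDX3X 2 over parental cells (left) and P568L over vector cells (right), and the dotted line marks equal values. EIF4A1, at a log2 ratio of 1.48 in shDDX3X 2, lies above the range of the left panel and is not shown there. In P568L members with lower neighbours tend to be lower themselves (r = 0.65), among them EIF5 and EIF2B2, while no such order is seen on the left (r = 0.14).

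More members were called between the series than in any comparison of conditions. In the same fit, edgeR called 6 of the 38 members between series B and series A (15.8%), where it called 11.3% of all genes, 6.56% as higher in series B and 4.69% as lower. EIF3C (1.94 ± 0.29, adjusted p = 0.00704) and EIF4EBP1 (1.23 ± 0.23, adjusted p = 0.0169) were higher in series B. EIF5 (-0.91 ± 0.20, adjusted p = 0.0249), EIF5B (-0.86 ± 0.20, adjusted p = 0.0291), EIF2S1 (-0.63 ± 0.16, adjusted p = 0.0381) and EIF3J (-0.80 ± 0.23, adjusted p = 0.0499) were lower. EIF3J was at 124, 119 and 161 CPM in series A and between 65.7 and 93.1 CPM in series B. EIF5B was at 235 to 278 CPM in series A and at 114 to 171 CPM in series B. After the GC trend was removed from each library, 1 member was called, EIF3C, where 3.01% of all genes were. Over the 38 members the series difference and GC content had a Pearson r of 0.70. The series also differ in their control cells, parental in A and vector in B, and in the groups they hold.

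The knockdown effect itself was compared between the series, as the log2 difference of shDDX3X 3 over vector minus that of shDDX3X 1 and 2 over parental cells. The only control was parental cells in series A and vector cells in series B, so series and control cells cannot be told apart here. The open reading frame hairpin was in series A only. edgeR called 0 of the 38 members, against 3.19% of all genes, and 4 members were at an unadjusted p below 0.05, against 13.6% of all genes. The 4 were EIF4EBP1 (-1.07 ± 0.32, adjusted p = 0.107), EIF3G (-0.91 ± 0.29, adjusted p = 0.142), EIF6 (-0.90 ± 0.30, adjusted p = 0.167) and EIF3C (-1.21 ± 0.41, adjusted p = 0.172). For each of them the parental library was the lowest of the 9.

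Around the initiation factors, 58 further genes of translation were listed, of which 56 were tested. In shDDX3X against control edgeR called 0 of the 56, against 0.675% of all genes. At an unadjusted p below 0.05 stood 11 of the 56, against 22.0% of all genes, and the list's median log2 fold change was -0.02. The list holds 12 tested further initiation factors, 15 poly(A)-binding proteins and eIF4F regulators, 9 eIF2 kinases, phosphatase subunits and regulators, 10 genes of mTORC1 signalling and 10 elongation and termination factors, and none of these sets had a called gene. The lowest adjusted p was that of MKNK2, a kinase of eIF4E, at 0.0684 (0.98 on the log2 scale). In the comparisons of the wild type and mutant libraries 0 of the 56 were called as well, with 1 (wild type against knockdown), 2 (mutant against knockdown) and 0 (mutant against wild type) at an unadjusted p below 0.05, beside 2.92%, 5.53% and 1.95% of all genes. Between the series 5 of the 56 were called, where 11.3% of all genes were: EIF3CL, MKNK2, EEF2 and TSC2 were higher in series B and EEF1E1 was lower.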

How the data were processed

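Poly(A) RNA of 9 Daoy libraries was read as 100 nt single ends from an unstranded kit, per the labels' protocols. The authors deposited whole-number read counts per gene for 57820 Ensembl identifiers. HISAT2, HTSeq, bcl2fastq and DESeq2 are named in the submitters' processing notes, with hg19 and GRCh37 as builds, while their versions and settings are not given in the sources used. Without strand, reads of overlapping or antisense genes cannot be told apart, and reads that fit several genes may have been set aside. The summary lines that name no gene held 20.3% to 35.8% of reads and were left out. A count of 0 allows up to 0.230 to 0.365 CPM (3 counts; counting error only).

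Symbols came from a gene name table matched by identifier (89.9% matched), and lengths, GC and sequences from GENCODE v29, which is of another build and gave no coordinates. Chromosomal neighbours (up to 25 coding genes on each side with a mean of at least 5 CPM, without the members) came from RefSeq gene order.

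The main test was edgeR 4.0.16 (R 4.3.3), robust quasi-likelihood, TMM normalization, on the 16155 genes that reached 1 CPM in 2 or more libraries, with group and series as terms over all 9 libraries (4 residual degrees of freedom). P-values were adjusted over all genes by Benjamini and Hochberg and called at 0.05; intervals are 95%. The test was run on simulated data without a series difference, with changes set in every library but the controls. That check therefore does not cover the series difference of these data. DESeq2 1.42.0 was an alternative, with others in the closing section. The labels do not say that replicates are separate cultures. Libraries of a group also differ in control cells, hairpin, series or mutant. The spread behind the p-values mixes these differences and is not that of repeated cultures of 1 line. Members, lists and tests were chosen with earlier results of these data known. Members named are those called, or the 3 of lowest p in each comparison, the highest and lowest of each complex in knockdown, the paralogue pairs and the X-linked members; others were named after their values were seen.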

Additional observations from a re-analysis of the deposited data

Results flagged for a closer look

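The knockdown effect differed between the 2 series, by the edgeR test of that difference over all genes, for 4 of the 56 tested genes of translation listed beside the initiation factors, where it was called for 3.19% of all genes. EEF1D, a subunit of the elongation factor that reloads eEF1A with GTP, differed by -2.02 on the log2 scale (series B minus series A, adjusted p = 0.0129). It was at 47.7 CPM in parental cells and at 176 and 199.7 CPM in the knockdowns of series A, but at 152 CPM in vector cells and 148 CPM in the knockdown of series B. MLST8, a subunit of mTORC1, differed by -1.94 (adjusted p = 0.0233), EIF3CL by -1.40 (adjusted p = 0.0434) and EEF2, the translocation factor of elongation, by -1.13 (adjusted p = 0.0486). For all 4 genes the parental library was the lowest of the 9 libraries. Parental cells are the only control of series A and vector cells of series B, so series and control cells cannot be told apart in this test.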

How the results depend on the processing

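Calls of members depended on single libraries in 2 comparisons. In shDDX3X against control, leaving out 1 library at a time gave 0 to 3 called members: 3 (EIF6, EIF3G and EIF4EBP1, all higher) without the vector control and without shDDX3X 3. In the mutants against shDDX3X it gave 0 to 2, the 2 (EIF4EBP1 and EIF3G, lower) without shDDX3X 3. The other 2 comparisons gave 0 throughout, and the other settings (size factors, DESeq2, filters, no series term, fewer groups, GC and neighbour trends) called 0 members in all 4. The background moved more than the members: over all genes, shDDX3X against control gave 109 calls (46 higher, 63 lower), but 1313 by DESeq2 (985 higher, 328 lower), 1920 without a filter, 307 with the GC trend removed, 55 with the neighbour trend removed, 17 at a mean of 5 CPM or more, 6 without the series term, 0 with only those groups or the replicate block, and 1 to 2097 leaving out 1 library (2097 without the vector control, 1 without P568L). The mutants against shDDX3X gave 0 calls, 23 by DESeq2, 166 without a filter and 999 without shDDX3X 3. The neighbour trend and the series comparison were added after seeing the data. Between the series, 1 member in place of 6 was called with the GC trend removed. The difference of control 1 and 2 and that of shDDX3X 1 and 2 had r = 0.02 over 11729 genes (2 pairs). This value cannot decide whether the numbers pair libraries. Controls 1 and 2 differ in series and in cells, while shDDX3X 1 and 2 are both of series A and differ in hairpin. With the replicate block 0 members were called.

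The complex medians in knockdown changed sign between settings. For eIF2 the median was 0.20 with the GC trend removed and -0.041 and -0.0086 for shDDX3X 1 and 2 over parental cells (-0.081 to 0.13 leaving out 1 library). For eIF2B it was -0.093 for shDDX3X 3 over vector cells (-0.093 to 0.11), and for eIF3 0.079 with the replicate block (-0.077 to 0.065). For eIF4F it was -0.0024 with the GC trend removed, 0.024 for shDDX3X 2 over parental cells and -0.040 for shDDX3X 3 over vector cells (-0.15 to -0.012).

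Of 22 named member results, 10 changed sign under some setting, in 15 of 364 values. In knockdown these were EIF2S2 with the neighbour trend removed (-0.14), EIF2S1 with the GC trend removed (0.036), the neighbour trend removed (0.16) and the replicate block (0.14), and EIF4EBP1 with the GC trend removed (-0.45). Leaving out 1 library gave -0.083 to 0.25 for EIF2B3 (below 0 without the parental control or shDDX3X 1), -0.00022 to 0.912 for EIF3G, -0.041 to 1.13 for EIF4A1 and -0.12 to 0.944 for EIF4EBP1, the lowest without the parental control in each. Against shDDX3X, EIF3D (0.055, neighbour trend removed) and EIF3G (0.018, no series term) changed sign with the wild type, and EIF4EBP1 (0.091, GC trend removed; 0.26, no series term) and EIF3G (0.14, no series term) with the mutants. The cause was not tested.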
